A study of Vitis vinifera with 24 samples.

Results

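Runs of neighbouring genes whose transcripts were less abundant in the cold are described here for leaves of the grapevine cultivar 'Thompson Seedless' (Vitis vinifera). Genes were put in order by the number in their identifier, within each prefix of the form Vitvi03g, and those whose number is below 4000 and which reached 1 FPKM in 3 or more libraries were retained, which left 16164. FPKM is a fragment count scaled to transcript length and to the mapped fragments of the library. A run is a stretch of 4 or more consecutive kept genes whose mean log2(FPKM + 1) was at least 1 lower in cold than in control leaves. There were 12 such runs with 61 genes. The members were thus chosen by the cold, control, NaCl and PEG6000 libraries. Leaving out 4 genes that were at least 1 lower under both NaCl and PEG6000 gave 57 members of the 35840 genes in the table. The runs carry 8 different prefixes, and 18 members carry Vitvi03g. Of the kept genes outside the runs, 2094 were also at least 1 lower in the cold, most of them alone (1490 genes) or in pairs (248 pairs). Unlike the members, these 2094 were not filtered by their response to NaCl and PEG6000.

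The samples were leaves of self-rooted cuttings grown in a greenhouse. There were 8 groups with 3 biological replicates each: trehalose with low temperature (4 ℃, called cold here), cold, trehalose with PEG6000, PEG6000, trehalose with NaCl, NaCl, trehalose, and an untreated control. Treated leaves were taken at 48 h, while the control has no time in the labels, and neither doses nor batches nor the timing of trehalose relative to the stress are stated. Trehalose is a sugar built of a pair of glucose units, PEG6000, a polyethylene glycol, makes water harder to take up and is used to mimic drought, and NaCl imposes salt stress.

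In plant genomes many genes lie beside copies of themselves that arose by tandem duplication, and such arrays are common among genes of defence, specialised metabolism and cell wall proteins. Neighbouring genes can also share a stretch of chromatin that is open or closed as a whole. Chilling lowers the transcripts of many growth-related genes in leaves of warm-climate plants. The sources used here give the genes no names or functions, and 0 identifiers matched the RefSeq gene table of another assembly, so members are called by identifier or by place in their run. Whether the members of a run are copies of each other could not be tested, and where they are, the authors' estimation may have divided reads between them. For the same reason the leaf was not checked against marker genes. The order of genes is that of the identifier numbers, and their positions on chromosomes were not used.

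Libraries of a group lay close together, with Pearson correlations of log2(FPKM + 1) of 0.994 to 0.997 between replicates and 0.823 to 0.989 between groups, across 20053 genes with at least 1 FPKM in 3 libraries. FPKM summed to between 597567 and 637648 per library, and depth is unknown. Between trehalose with cold and trehalose, all genes had a median log2 change of -0.20 as deposited. Median-of-ratios scaling brings this median near 0 by its design, here to 0.00. The cause of the shift was not tested.

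**Figure D1:**
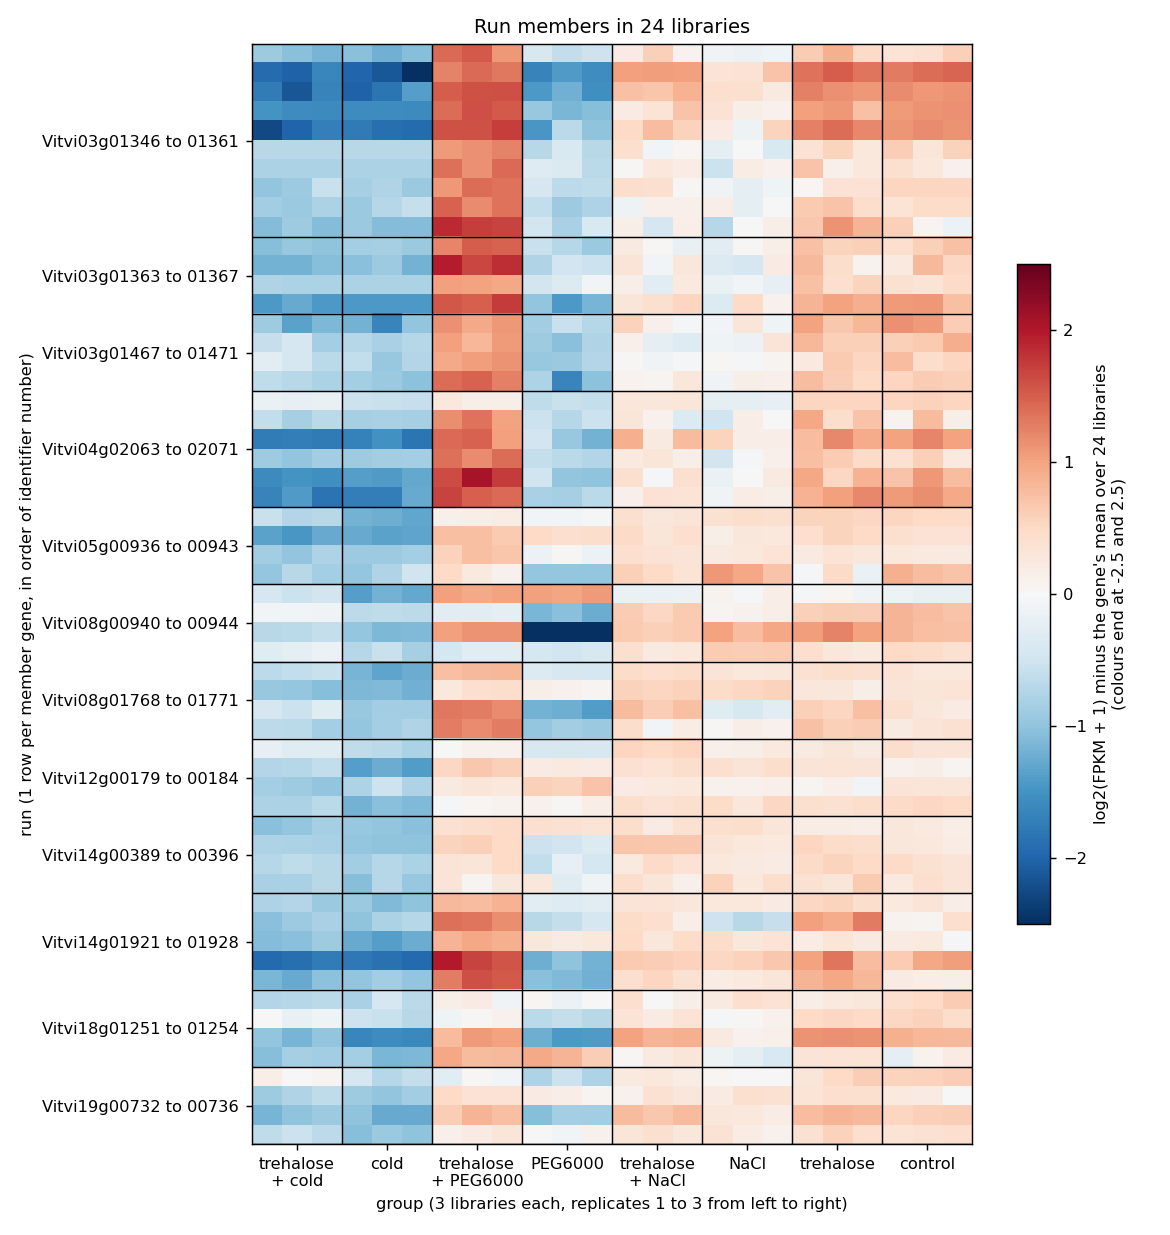
Heat map of the 57 members (rows, in order of identifier number, divided by run) in 24 libraries (columns, 3 per group), coloured by log2(FPKM + 1) minus the gene's own mean over all libraries. The trehalose with cold and cold columns are blue in nearly every row. Run means in trehalose with PEG6000 are above those of trehalose by 0.44 to 0.81 in the 3 Vitvi03g runs and the Vitvi04g run. They are also above by 0.44 and 0.49 in the runs that start at Vitvi08g01768 and Vitvi14g01921.

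The cold and control libraries chose the members, so their values are a description. The members had a median log2(FPKM + 1) difference of -1.37 between cold and control leaves, ranging over members from -3.602 to -1.0004. As FPKM, the median member in cold leaves was left with 19.3% of its control level. Of all 20053 genes, 13.6% were at least 1 lower, and 52.3% had all cold libraries below all control libraries, as all 57 members had. The members nearest the limit were at -1.0004, -1.03 and -1.04, and the genes next to a run that came nearest to joining it were at -0.93, -0.84 and -0.83. The 4 genes left out for their response to NaCl and PEG6000 had the smaller of both falls between -1.54 and -1.10, and the nearest kept members were at -0.97, -0.92 and -0.91.

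The longest run reached from Vitvi03g01346 to Vitvi03g01361, with 13 genes of which 10 are members. Its members had mean control levels between 1.07 and 26.8 FPKM. A single kept gene stood between it and a run of 4 members from Vitvi03g01363 to Vitvi03g01367. That gene was at 0.0178 FPKM in cold and 0.438 FPKM in control leaves, too low to differ by 1 on the log2(FPKM + 1) scale. Another run with this prefix reached from Vitvi03g01467 to Vitvi03g01471 (4 members, 2.75 to 6.40 FPKM in control). The Vitvi04g run reached from Vitvi04g02063 to Vitvi04g02071 (6 members). It joins genes of very unequal level, since its first member had 2747 FPKM in control leaves and another had 1.32 FPKM. The run from Vitvi14g01921 to Vitvi14g01928 had 5 members at 1.496 to 6.19 FPKM in control. The other 7 runs had 4 members each. They started at Vitvi05g00936, Vitvi08g00940, Vitvi08g01768, Vitvi12g00179, Vitvi14g00389, Vitvi18g01251 and Vitvi19g00732, with control levels between 1.99 and 51.7 FPKM.

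Which genes form runs depended on the scaling. After median-of-ratios scaling the same rule gave 4 runs with 17 members, all of them among the 57 and all with the prefix Vitvi03g or Vitvi04g. After quantile normalization it gave 9 runs with 35 members, 20 of them shared. The pseudocount mattered as well: with 0.1 in place of 1 there were 40 runs with 160 members, 46 of them shared.

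Across the 8 groups the runs fell into several patterns, given here as the mean log2(FPKM + 1) over the members of a run, with no test. The 3 Vitvi03g runs and the Vitvi04g run were low in the cold and under PEG6000, intermediate under NaCl, and highest in trehalose with PEG6000. The run that starts at Vitvi14g01921 was similar, at 0.72 in cold, 1.34 in PEG6000, 2.08 in NaCl, 2.24 in control and 3.16 in trehalose with PEG6000. The run that starts at Vitvi08g01768 was also lowest in cold (2.35) and highest in trehalose with PEG6000 (4.30). In the longest run the means were 0.41 in trehalose with cold, 0.40 in cold, 3.08 in trehalose with PEG6000, 0.81 in PEG6000, 2.03 in trehalose with NaCl, 1.71 in NaCl, 2.45 in trehalose and 2.37 in control leaves. In the Vitvi04g run they were 1.87 in trehalose with cold, 1.85 in cold, 4.22 in trehalose with PEG6000, 2.27 in PEG6000, 3.28 in trehalose with NaCl, 2.99 in NaCl, 3.77 in trehalose and 3.71 in control leaves. The order of the 8 means was the same in both runs, with cold next to trehalose with cold and trehalose next to control at small distances.

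In the run that starts at Vitvi03g01467, PEG6000 leaves were about as low as cold leaves, with a mean of 0.87 in trehalose with cold, 0.67 in cold, 2.71 in trehalose with PEG6000, 0.70 in PEG6000, 1.65 in trehalose with NaCl, 1.63 in NaCl, 2.25 in trehalose and 2.31 in control leaves. Its first member shows the pattern in each library. Vitvi03g01467 was at 0.689, 0.221 and 0.928 FPKM in cold and 7.40, 6.97 and 4.84 FPKM in control leaves. It was at 7.44, 6.34 and 7.10 FPKM in trehalose with PEG6000 and at 1.10, 1.60 and 1.35 FPKM in PEG6000.

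In the run that starts at Vitvi12g00179 the cold groups stood alone. Its means were 3.51 in trehalose with cold, 3.20 in cold, and between 4.29 and 4.54 in the other 6 groups. The run that starts at Vitvi05g00936 was similar, at 2.45 in trehalose with cold and 2.34 in cold, with PEG6000 next at 3.21 and the other 5 groups between 3.73 and 3.86. Its first member, Vitvi05g00936, was at 14.6, 14.2 and 13.5 FPKM in cold and 50.7, 49.3 and 48.3 FPKM in control leaves. Its last, Vitvi05g00943, was listed at 0 in all 3 PEG6000 libraries and was at 2.65, 2.34 and 2.21 FPKM in control leaves. Its second, Vitvi05g00938, was at 31.6, 29.8 and 30.1 FPKM in PEG6000 and 29.2, 28.8 and 28.5 FPKM in control leaves, so members of the run differed in PEG6000.

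Members of the run that starts at Vitvi18g01251 were all lower in the cold but did not share a direction in PEG6000. Its last member, Vitvi18g01254, was at 1.27, 0.839 and 0.878 FPKM in cold, 6.90, 6.37 and 5.27 FPKM in PEG6000 and 2.44, 3.31 and 3.68 FPKM in control leaves, so it was lower than control in cold and higher in PEG6000. The member before it was at 2.93, 3.08 and 2.98 FPKM in cold, 4.22, 3.49 and 3.53 FPKM in PEG6000 and 21.5, 20.6 and 20.2 FPKM in control leaves, low in both. In the run that starts at Vitvi08g01768, the first 2 members kept more of their control level in PEG6000 than the last 2. Vitvi08g01769 was at 27.6, 26.9 and 26.4 FPKM in PEG6000 and 31.7, 31.0 and 31.7 FPKM in control leaves, while Vitvi08g01771 was at 1.91, 2.102 and 1.98 FPKM in PEG6000 and 5.68, 6.11 and 6.45 FPKM in control leaves.

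The cold response was then measured in trehalose with cold against trehalose, libraries that the choice of members used only in the filter for at least 1 FPKM in 3 libraries, which all 24 libraries share. All 57 members were lower in every library of trehalose with cold than in every trehalose library, as 53.1% of all genes were. The same held for 99.6% of the 2094 lowered genes outside runs, so it is shared by genes chosen for a fall in cold leaves. All 57 members fell in the limma test (adjusted p at most 0.000343), where 52.6% of all genes fell. None rose, where 30.3% of all genes did. At least 2-fold falls, meaning a log2 change of -1 or less, were found for 46 members (80.7%), against 11.7% of all genes. The median log2 change was -1.26 for the members and -1.15 for the 2094 lowered genes outside runs, of which 63.9% were at least 1 lower. These values hold for a pseudocount of 1: the members' median was -2.03 with 0.1 and -2.20 with 0.01. In these bulk samples, fewer cells of a type and less RNA per cell cannot be told apart. After median-of-ratios scaling 56 members fell, with a median of -1.14.

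**Figure D2:**
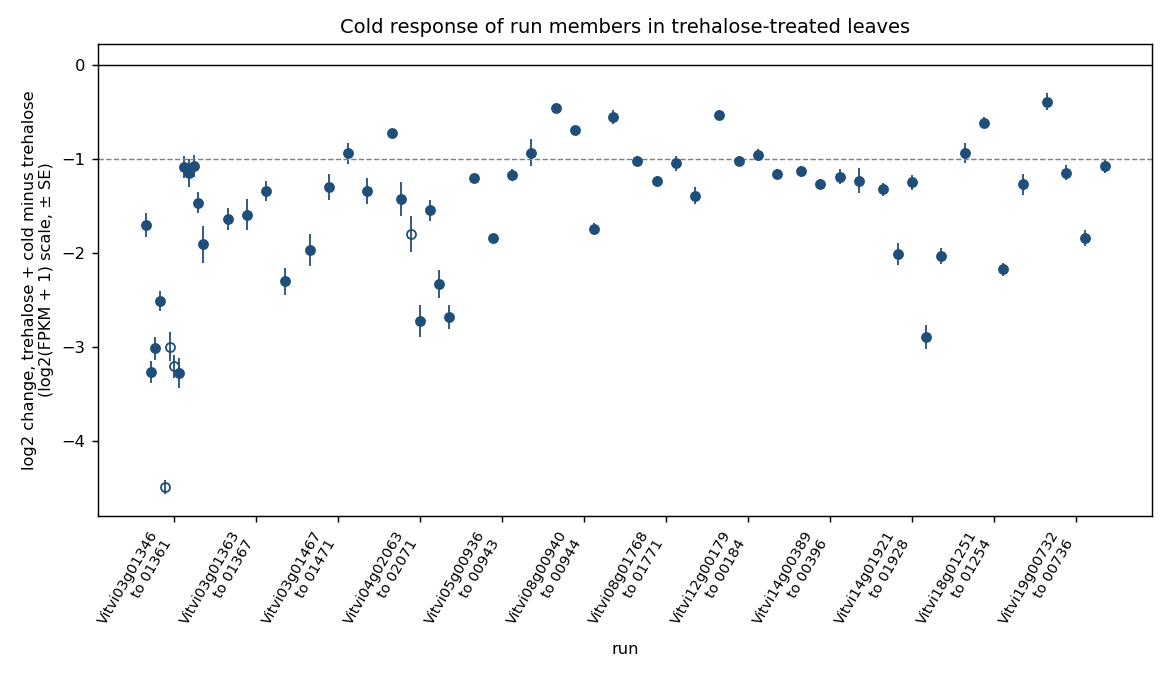
Log2 change of each run gene between trehalose with cold and trehalose (points, with the standard error from limma), by run. Filled points are the 57 members, all below 0, and open points are the 4 genes left out for their response to NaCl and PEG6000; the dashed line marks a log2 change of -1.

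Expression without stress was modest. In trehalose leaves the median member had 6.44 FPKM, against 13.6 FPKM for the lowered genes outside runs and 7.79 FPKM for all genes. In trehalose with cold the median member was at 1.16 FPKM. There, 26 of 57 members (45.6%) were below 1 FPKM, compared with 13.1% of the lowered genes outside runs and 14.6% of all genes. The median member in trehalose with cold was left with 21.3% of its trehalose level, and 29 members with 25% or less, a count not made over all genes.

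The 2 largest falls were in the longest run. Vitvi03g01356 was at 0.731, 1.06 and 1.52 FPKM in trehalose with cold, against 18.7, 20.8 and 18.0 FPKM in trehalose leaves. Its log2 change was -3.27 (SE 0.16, adjusted p 3.37e-15). Vitvi03g01347 was at 1.82, 1.64 and 2.46 FPKM in trehalose with cold, against 26.4, 29.4 and 26.1 FPKM in trehalose leaves (log2 change -3.26, SE 0.12, adjusted p 1.38e-17). Both genes had well separated groups, although Vitvi03g01356 ranged from 0.731 to 1.52 FPKM between replicates of trehalose with cold. The 10 members of the run fell by 1.07 to 3.27 on the log2 scale. Those in places 9 and 10 of the run were listed at 0 in all 3 libraries of trehalose with cold and all 3 cold libraries. In trehalose leaves they were at 1.09, 1.37 and 0.932 FPKM and at 1.81, 0.877 and 1.05 FPKM (log2 changes -1.09 and -1.15, which the pseudocount of 1 keeps small at such levels). The 4 members of the neighbouring run were likewise near 0, at means of at most 0.0726 FPKM in trehalose with cold, and fell by 1.34 to 2.29.

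**Figure D3:**
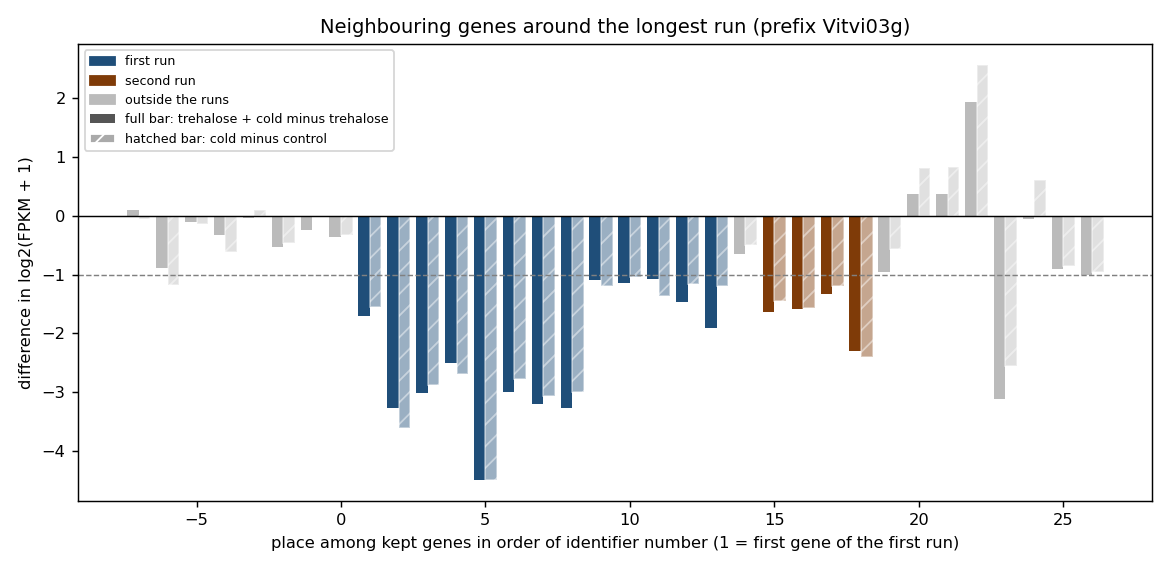
Difference in log2(FPKM + 1) of kept genes with the prefix Vitvi03g in order of identifier number, from 8 places before the longest run to 8 places after the next run. Full bars show trehalose with cold minus trehalose, hatched bars cold minus control; every gene of both runs lies below the dashed line at -1 in both, with 1 smaller fall between them.

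Genes around the stretch of 18 kept genes that spans both runs varied. The gene just before it changed by -0.36 and the gene just after it by -0.95 (log2, trehalose with cold minus trehalose), and the next 3 genes were higher, by 0.36 to 1.93. The next 4 genes changed by -3.11, -0.06, -0.90 and -1.01. Of the 8 genes before the stretch, the lowest changed by -0.88. The gene just after the stretch was left in trehalose with cold with 25.2% of its trehalose level. Over all runs, the 23 genes directly next to a run had a median difference of -0.30, between -1.18 and 0.41. A run ends where a gene is less than 1 lower in the cold, so a smaller value there follows from the rule.

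Runs differed in how alike their members were. In the run that starts at Vitvi14g00389 the 4 members fell by 1.13 to 1.26, a range of 0.13. In the run that starts at Vitvi08g01768 they fell by 1.01 to 1.39. In 5 of the 12 runs every member was at least 1 lower again, namely these 2, the first 2 Vitvi03g runs and the run that starts at Vitvi14g01921. In the other 7 runs, 11 members fell by less than 1. The run that starts at Vitvi08g00940 had the smallest mean change of the 12, -0.86: its members in order changed by -0.45, -0.69, -1.74 and -0.55, so that 1 of 4, Vitvi08g00942, was again 2-fold lower. It had 12.5, 12.8 and 13.6 FPKM in trehalose with cold and 44.3, 50.4 and 42.7 FPKM in trehalose leaves. The Vitvi04g run held the most abundant member, Vitvi04g02063, with 1688, 1629 and 1662 FPKM in trehalose with cold and 2738, 2733 and 2734 FPKM in trehalose leaves. It fell by 0.72 (SE 0.03), while the 5 members after it fell by 1.42 to 2.72. The smallest fall of all was that of Vitvi19g00732, at 6.74, 5.97 and 6.26 FPKM in trehalose with cold and 7.56, 8.69 and 9.52 FPKM in trehalose leaves (log2 change -0.39, SE 0.09).

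Cold was also set directly against the other stresses, with trehalose in both groups. The rule chose members for a fall in cold leaves and left out genes lowered by both NaCl and PEG6000. Lower values in the cold are thus favoured by the choice. Between trehalose with cold and trehalose with NaCl, 56 members were lower (56.3% of all genes were), 0 were higher (27.7% of all genes) and 1 was not called. At least 2-fold, 37 members (64.9%) were lower in trehalose with cold, against 12.2% of all genes. Of the 2094 lowered genes outside runs, 62.8% were at least 1 lower, close to the share of the members. The largest difference was that of Vitvi03g01347, at 1.82, 1.64 and 2.46 FPKM in trehalose with cold and 20.9, 21.1 and 20.8 FPKM in trehalose with NaCl (log2 change -2.89, SE 0.12). Vitvi03g01348 followed, at 1.04, 0.558 and 1.16 FPKM in trehalose with cold and 10.4, 10.1 and 11.6 FPKM in trehalose with NaCl (log2 change -2.62, SE 0.13). The member not called was Vitvi19g00732, with a log2 change of -0.14 and an adjusted p of 0.138.

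Between trehalose with cold and trehalose with PEG6000, 53 members were lower, 1 was higher and 3 were not called, where 60.4% of all genes were lower and 24.8% higher. At least 2-fold, 46 members (80.7%) were lower, against 17.5% of all genes, and 0 were higher, against 8.24%. Of the 2094 lowered genes outside runs, 57.3% were at least 1 lower. Vitvi03g01356 was at 0.731, 1.06 and 1.52 FPKM in trehalose with cold and 23.7, 24.02 and 26.4 FPKM in trehalose with PEG6000 (log2 change -3.63, SE 0.16). Vitvi14g01926 was at 0.0402 and 0.154 FPKM and listed at 0 in the libraries of trehalose with cold, and at 14.1, 11.4 and 10.4 FPKM in trehalose with PEG6000 (log2 change -3.599, SE 0.12). With a pseudocount of 0.1 the log2 change of Vitvi14g01926 was -6.29, and that of Vitvi03g01356 was -4.42; with 0.01 they were -8.09 for Vitvi14g01926 and -4.53 for Vitvi03g01356. The member that went the other way, Vitvi08g00941, had 22.6, 22.8 and 22.2 FPKM in trehalose with cold and 19.4, 19.5 and 20.2 FPKM in trehalose with PEG6000 (log2 change 0.18, SE 0.05, adjusted p 0.000755). After median-of-ratios scaling its log2 change was 0.58 and 4 members were higher, as 4 were after quantile normalization.

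PEG6000 without trehalose was part of the rule and is given as a description. Members had a median log2 difference of -1.09 between PEG6000 and control leaves. Of the 57, 30 were at least 1 lower, where 7.73% of all genes and 33.4% of the lowered genes outside runs were. Genes lowered by both NaCl and PEG6000 were left out of the members but not of those outside runs. Run means were lower under PEG6000 than in control leaves in each of the 12 runs, by 1.61 in the run that starts at Vitvi03g01467 and by 0.19 in the run that starts at Vitvi12g00179.

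With trehalose, most members were not lower under PEG6000. Between trehalose with PEG6000 and trehalose, 33 members rose (57.9%, against 48% of all genes), 10 fell (17.5%, against 15.5%) and 14 were not called. At least 2-fold, 4 members rose (7.02%), where 6.17% of all genes did, and 0 fell, where 0.753% did. The counts over all members were thus near those of all genes, and they moved with the processing: 21 rose and 15 fell after quantile normalization, 27 rose and 14 fell after median-of-ratios scaling, and 18 rose and 10 fell with a pseudocount of 0.01. Among the runs the calls were uneven: members that rose numbered 8 of 10 in the longest run, 4 of 4 in the run beside it, 2 of 4 in the Vitvi03g run that starts at Vitvi03g01467, 4 of 6 in the Vitvi04g run, 4 of 5 in the run that starts at Vitvi14g01921 and 4 of 4 in the run that starts at Vitvi08g01768. In the other 6 runs, 7 members rose and 9 fell, but after quantile normalization 2 rose and 15 fell there. After quantile normalization the 3 Vitvi03g runs had 11 rises and 0 falls (limma, adjusted p below 0.05), the Vitvi04g run had 2 rises in place of 4, and the runs that start at Vitvi18g01251 and Vitvi19g00732 had 7 falls and 0 rises.

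Vitvi03g01364 showed the largest rise. It was at 7.85, 6.22 and 7.12 FPKM in trehalose with PEG6000 and 2.98, 2.07 and 1.41 FPKM in trehalose leaves (log2 change 1.38, SE 0.17, adjusted p 1.71e-07). Without trehalose the same gene was at 0.338, 0.622 and 0.559 FPKM in PEG6000 and 1.68, 2.97 and 2.23 FPKM in control leaves. Vitvi03g01359 was at 3.20, 4.24 and 4.09 FPKM in trehalose with PEG6000 and 1.04, 1.55 and 1.53 FPKM in trehalose leaves (log2 change 1.03, SE 0.12, adjusted p 8.95e-08). Both genes had no overlap between these groups, but at such low levels the call depended on the pseudocount: with 0.01, the adjusted p was 0.067 for Vitvi03g01364 and 0.0833 for Vitvi03g01359.

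Of the 10 falls, 1 was in the Vitvi04g run, where the most abundant member, Vitvi04g02063, was at 2265, 2096 and 2091 FPKM in trehalose with PEG6000 and 2738, 2733 and 2734 FPKM in trehalose leaves (log2 change -0.35, SE 0.03, adjusted p 3.68e-11). The largest falls were in the run that starts at Vitvi08g00940. Vitvi08g00941 was at 19.4, 19.5 and 20.2 FPKM in trehalose with PEG6000 and 36.4, 37.3 and 37.2 FPKM in trehalose leaves (log2 change -0.87, SE 0.05, adjusted p 5.3e-14). Vitvi08g00944 was at 3.95, 4.55 and 4.57 FPKM in trehalose with PEG6000 and 7.91, 7.17 and 6.89 FPKM in trehalose leaves (log2 change -0.64, SE 0.07). The run of these genes was the most mixed under PEG6000. Its first member was at 60.8, 58.2 and 60.3 FPKM in trehalose with PEG6000 and 29.0, 30.3 and 27.8 FPKM in trehalose leaves, a rise of 1.02 (SE 0.05). Vitvi08g00942 was at 43.6, 46.3 and 46.6 FPKM in trehalose with PEG6000, 2.44, 2.12 and 1.96 FPKM in PEG6000, 44.3, 50.4 and 42.7 FPKM in trehalose, and 38.6, 35.6 and 35.2 FPKM in control leaves. That gene was thus low under PEG6000 without trehalose and near its unstressed level with it. It did not differ by the test between trehalose with PEG6000 and trehalose (log2 change -0.01, SE 0.07, adjusted p 0.94).

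**Figure D4:**
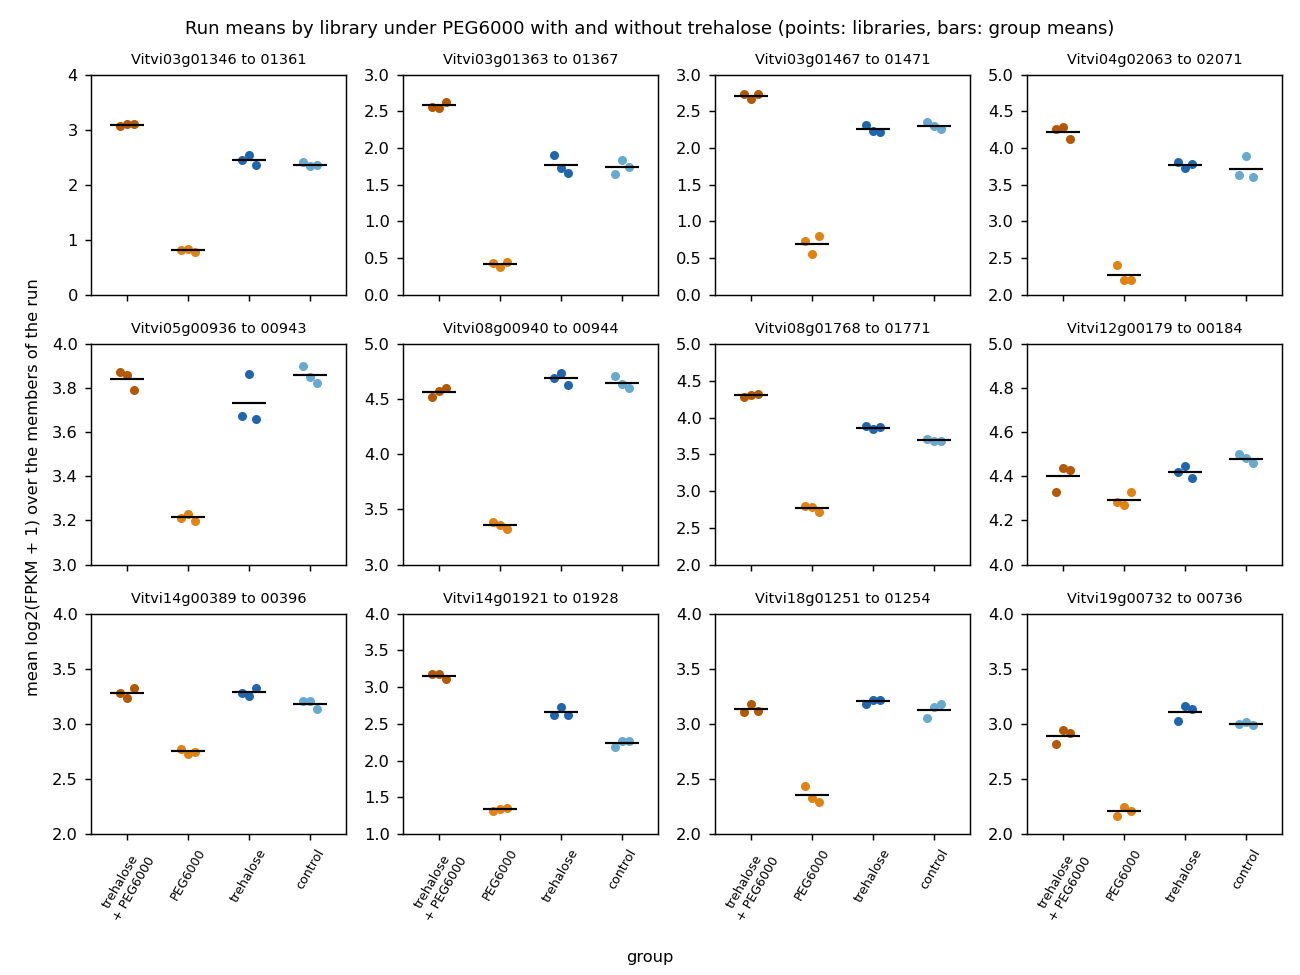
Mean log2(FPKM + 1) over the members of each run in the libraries of trehalose with PEG6000, PEG6000, trehalose and control (points, 3 libraries per group, with the group mean as a bar); each panel has its own vertical axis. PEG6000 without trehalose is the lowest of the 4 group means in every run, by little in the run that starts at Vitvi12g00179, and trehalose with PEG6000 is the highest in 6 runs by more than the spread between libraries.

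Set directly beside PEG6000 leaves, trehalose with PEG6000 leaves had a median log2 difference of 1.74 over the members and 0.08 over all genes. In 49 of 57 members every library of trehalose with PEG6000 was above every PEG6000 library, where 42.7% of all genes were. The same held for 75.8% of the lowered genes outside runs. The PEG6000 libraries took part in the choice of members, so no test is given. By run the mean difference was between 0.11 in the run that starts at Vitvi12g00179 and 2.27 in the longest run.

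Trehalose with PEG6000 was also compared with trehalose with NaCl, groups whose libraries the rule used only in the filter on low values. Here 37 members were higher (64.9%, against 39.2% of all genes), 10 were lower (17.5%, against 22.1%) and 10 were not called. At least 2-fold, 21 members were higher (36.8%), against 6.16% of all genes, and 0 were lower, against 0.918%. Of these 21, 13 lie in the 3 Vitvi03g runs, 4 in the Vitvi04g run and 2 in the run that starts at Vitvi14g01921. Vitvi03g01361 was at 6.73, 6.02 and 5.85 FPKM in trehalose with PEG6000 and 1.35, 0.574 and 1.38 FPKM in trehalose with NaCl (log2 change 1.80, SE 0.20). Vitvi03g01364 was at 7.85, 6.22 and 7.12 FPKM in trehalose with PEG6000 and 1.82, 1.18 and 1.75 FPKM in trehalose with NaCl (log2 change 1.65, SE 0.17).

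Salt lowered the members less than cold did, which the choice of members favours. The rule required a fall of at least 1 in cold leaves and left out genes at least 1 lower under both NaCl and PEG6000. Between trehalose with NaCl and trehalose, 30 members fell (52.6%, against 16.1% of all genes), 6 rose (10.5%, against 33.4%) and 21 were not called. After median-of-ratios or quantile scaling 2 rose. The falls were small, the largest being -0.92, with a median over all members of -0.21. None was 2-fold lower or 2-fold higher, where 0.539% of all genes were lower and 0.888% higher by that much. The 3 Vitvi03g runs and the Vitvi04g run held 19 of the 30 falls and 0 of the 6 rises. Vitvi03g01361 was at 1.35, 0.574 and 1.38 FPKM in trehalose with NaCl and 2.39, 3.598 and 2.84 FPKM in trehalose leaves (log2 change -0.92, SE 0.20, adjusted p 0.000482). With a pseudocount of 0.01 the adjusted p of this gene was 0.194, and 14 members fell. Vitvi03g01469 was at 1.49, 0.927 and 0.802 FPKM in trehalose with NaCl and 3.05, 2.44 and 2.42 FPKM in trehalose leaves (log2 change -0.82, SE 0.14). Of the members that rose, Vitvi08g01769 was at 37.7, 36.8 and 37.7 FPKM in trehalose with NaCl and 30.8, 30.6 and 27.8 FPKM in trehalose leaves (log2 change 0.32, SE 0.05). Vitvi05g00943 was at 1.96, 1.78 and 1.47 FPKM in trehalose with NaCl and 0.917, 1.73 and 0.741 FPKM in trehalose leaves (log2 change 0.39, SE 0.14, adjusted p 0.0268). The groups of this gene overlap, and its call was lost without trehalose replicate 3 (adjusted p 0.173), after median-of-ratios scaling (0.0771), after quantile normalization (0.0987), and with a pseudocount of 0.1 (0.204) or 0.01 (0.576), among other alternatives.

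Salt without trehalose was part of the rule. Members had a median log2 difference of -0.36 between NaCl and control leaves. Of the 57, 34 had all NaCl libraries below all control libraries, where 19.6% of all genes and 54.1% of the lowered genes outside runs had. The latter genes were not filtered by their response to NaCl and PEG6000. The mean over the members of a run was between -0.72 and -0.66 in the 3 Vitvi03g runs and the Vitvi04g run, and between -0.40 and 0.03 in the other 8. Between trehalose with NaCl and NaCl leaves the median over members was 0.17.

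Trehalose by itself was close to control for most members. The median log2 difference between trehalose and control leaves was 0.05, with 0 members at least 1 lower (0.13% of all genes were). The control libraries are shared with the rule, so no test is given. All trehalose libraries were above all control libraries for 17 members and below them for 8, where 22.7% and 19.7% of all genes were. The run that starts at Vitvi14g01921 had the largest mean difference, 0.42, and its members were between 0.11 and 0.89 higher. Its second member was at 3.42, 3.11 and 4.37 FPKM in trehalose and 1.31, 1.28 and 1.902 FPKM in control leaves. In the cold, trehalose with cold leaves differed from cold leaves by a median of 0.11 over the members. The largest mean over the members of a run was 0.57, in the run that starts at Vitvi08g00940. Its first member was at 21.9, 20.0 and 21.2 FPKM in trehalose with cold and 10.8, 12.4 and 11.5 FPKM in cold leaves.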

How the data were processed

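The deposited table holds FPKM values by gene, a unit that the authors give in its name, with 1 column per library and replicates not pooled. StringTie 2.1.3b, HISAT2 2.1.0, SAMtools 1.9 and fastp 0.20.0 appear in the submitters' processing notes, with no stated role; build, annotation and strandedness: not given in the sources used here. Depth is unknown, so no count test was run. The labels call the replicates biological but do not say whether they were separate plants; a p-value therefore reflects only how these libraries vary.

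Columns were assigned to samples by name and samples to groups by the treatment label. The members and the comparisons were chosen with earlier results of these data known. Values were transformed to log2(FPKM + 1), which understates the change of low genes. Tests used limma 3.58.1 in R 4.3.3 (1 mean per group, 16 residual degrees of freedom, eBayes with a trend) on 20053 genes with at least 1 FPKM in 3 libraries, two-sided, with Benjamini-Hochberg adjustment over all these genes and calls at an adjusted p below 0.05. The fit was run on simulated data for trehalose with cold against trehalose. It called 27 of 50 genes changed 1.2-fold and 50 of 50 changed 2-fold, with 11 false calls. Few genes were changed there, while 52.6% of all genes fell in the real comparison. The simulation therefore does not give the error of the calls made here. Comparisons that share cold, NaCl, PEG6000 or control libraries with the choice of members are described and not tested. The filter on low values used all libraries. Alternatives were other pseudocounts, scalings and filters, leaving out each library, and the replicate number as a block. Runs were named by their ends, and in each tested comparison up to 2 called members with the largest rise and 2 with the largest fall were named. A few further members were chosen after their values were seen. Figures used Python 3.11.15 and matplotlib 3.10.9.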

Additional observations from a re-analysis of the deposited data

Results flagged for a closer look

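In 6 runs the mean over the members moved in opposite directions under PEG6000 with and without trehalose: every library of trehalose with PEG6000 was above every trehalose library, and every PEG6000 library was below every control library. The effect with trehalose minus the effect without it was 2.19 on the log2 scale for Vitvi03g01346 to Vitvi03g01361, 2.13 for Vitvi03g01363 to Vitvi03g01367, 2.06 for Vitvi03g01467 to Vitvi03g01471, 1.88 for Vitvi04g02063 to Vitvi04g02071, 1.36 for Vitvi08g01768 to Vitvi08g01771 and 1.39 for Vitvi14g01921 to Vitvi14g01928. The difference was not tested, because PEG6000 and control libraries took part in the choice of members. Gene by gene, 48.9% of all genes had every library of trehalose with PEG6000 above every trehalose library. Every PEG6000 library was below every control library for 35.6% of all genes. Genes doing both were not counted. Over all genes, trehalose with PEG6000 minus trehalose had a median of 0.15 as deposited and -0.05 after quantile normalization. After that scaling the 6 runs, in the order above, had 7, 3, 1, 2, 3 and 3 members called higher (limma). In the longest run the effect was 0.63 with trehalose and -1.56 without it, and in the run that starts at Vitvi08g01768 it was 0.44 with trehalose and -0.92 without it. Neither cold nor NaCl gave such opposite effects in any of the 12 runs.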

How the results depend on the processing

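All 57 members fell between trehalose with cold and trehalose in each fit that left out a library (57 to 57 lower, 0 to 0 higher). The ranges for the other comparisons when 1 library was left out were, as members higher and lower, 3 to 6 and 24 to 31 for trehalose with NaCl against trehalose (3 without trehalose replicate 3), 31 to 34 and 8 to 10 for trehalose with PEG6000 against trehalose, 0 to 0 and 56 to 56 for trehalose with cold against trehalose with NaCl, 1 to 2 and 53 to 54 for trehalose with cold against trehalose with PEG6000 (2 without replicate 2 of either group), and 36 to 37 and 9 to 10 for trehalose with PEG6000 against trehalose with NaCl. A mean of at least 5 FPKM leaves 27 members to test, and then 27 were lower in trehalose with cold than in trehalose. Against trehalose, 11 were lower in trehalose with NaCl and 12 higher in trehalose with PEG6000. In trehalose with cold, 26 were lower than in trehalose with NaCl, and 23 were lower and 2 higher than in trehalose with PEG6000. In trehalose with PEG6000, 11 were higher than in trehalose with NaCl. Shares of all genes called were counted for the main fit only, so counts under other settings cannot be set against all genes. With a pseudocount of 0.01, 14 members fell in trehalose with NaCl and 18 rose in trehalose with PEG6000, each against trehalose. The rises in trehalose with NaCl numbered 2 with median-of-ratios and 2 with quantile scaling, and members higher in trehalose with cold than in trehalose with PEG6000 numbered 4 with either scaling. Quantile scaling left 21 rises in trehalose with PEG6000 against trehalose. With a 2-fold limit as well, trehalose with NaCl against trehalose gave 0 falls and 0 rises (limma), trehalose with PEG6000 against trehalose 0 falls and 4 rises, trehalose with cold against trehalose with NaCl 37 falls, trehalose with cold against trehalose with PEG6000 0 rises, and trehalose with PEG6000 against trehalose with NaCl 0 falls and 21 rises; the cause of these changes other than fewer genes tested or a stricter limit was not tested.

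The rule itself gave 160 members in 40 runs with a pseudocount of 0.1, 17 in 4 with median-of-ratios factors, 35 with quantile normalization, 118 in 25 with identifier numbers of 4000 and above sorted in, 162 in 48 for runs of 3 or more and 21 in 3 for runs of 5 or more. Leaving out 1 cold or control library gave 48 to 67 members in 10 to 15 runs, and without control replicate 1 the longest run ended earlier, with 6 members. Same-numbered replicates did not deviate together (correlations of -0.0952 to 0.0879 over 84 pairs of libraries). Whether equal numbers stand for the same plants or harvest cannot be told from this. With the replicate number as a block, 34 members rose in trehalose with PEG6000 against trehalose. The other counts of members in the 6 tested comparisons were as without it. With no depths, the precision of genes below 1 FPKM cannot be given.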

Other observations

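Some genes of low level beside the runs were also lower in the cold on the FPKM scale, but by less than 1 between cold and control leaves on the log2(FPKM + 1) scale. These values were chosen after they were seen and come without a test. The gene between the 2 adjacent Vitvi03g runs had a mean of 0 in trehalose with cold (listed at 0 in all libraries) and 0.588 FPKM in trehalose leaves. The gene after the second of these runs had 0.459 FPKM in trehalose with cold and 1.82 FPKM in trehalose leaves, and was 0.79 higher on the log2 scale in trehalose with PEG6000 than in trehalose. The gene after the Vitvi04g run was left with 1.28% of its trehalose level in trehalose with cold. With a pseudocount of 0.1 the longest run ended at Vitvi03g01372 in place of Vitvi03g01361, and it ended at Vitvi03g01367 when genes needed 1 FPKM in 12 libraries.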
